A study of Homo sapiens with 480 samples.

Results

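TRiC (TCP1 ring complex, also called CCT) is the chaperonin of the eukaryotic cytosol, and its 8 subunit genes TCP1, CCT2, CCT3, CCT4, CCT5, CCT6A, CCT7 and CCT8 were chosen by name from the 20302 features of the deposited table. All 8 were in the table, and all 8 passed the filter on low counts. The cells were J-Lat A2, a Jurkat-derived clonal line that carries a silent integrated viral construct, and Jurkat, a human T cell leukemia line without it. Both lines were treated for 24 h with 1 µM SAHA (an inhibitor of histone deacetylases), with PMA at 1 µg/mL (a phorbol ester and activator of protein kinase C), or with 0.1% v/v DMSO, the solvent control. J-Lat A2 is 1 clone, so what holds for it need not hold for other integrations.

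The study sorted single cells into 480 wells, on 5 plates and in 2 batches, and 410 wells passed the depth filter. Adding up the wells of a group in a batch gave 9 sums of 4682181 to 36603816 counts. J-Lat A2 with SAHA, J-Lat A2 with DMSO and Jurkat with DMSO were in both batches (n = 2), and the other 3 groups were in the second batch alone (n = 1). J-Lat A2 with SAHA kept 67 of 120 wells (first batch) and 68 of 81 wells (second batch), against at least 97.2% of the wells in every other group. The median mitochondrial share of counts was 4.51 to 4.94% in the SAHA groups, 3.67 to 3.96% in the PMA groups and 3.20 to 3.66% in the DMSO groups. All 9 T cell markers had counts in every group. Their summed level was 586 to 678 CPM (counts per 1000000) with SAHA, 5329 to 6353 CPM with PMA and 2632 to 3091 CPM with DMSO. The B cell markers MS4A1 and PAX5 were at 0 throughout. The part of the well loss, the mitochondrial share and the T cell marker level in the results below was not tested.

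TRiC is built of a pair of stacked rings, each with 1 copy of every subunit, and folds proteins inside its cavity in cycles of ATP binding and hydrolysis. Actin and tubulin are its best known substrates, and many proteins with WD40 repeats also depend on it. Prefoldin delivers unfolded chains to the ring, and phosducin-like proteins assist folding in it. Because each position of the ring is held by a different gene product, the 8 genes are commonly described as expressed together.

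The subunit genes lie on 7 chromosomes (GRCh38, GENCODE release 29). TCP1, the alpha subunit, is at chr6:159778498-159789749 on the minus strand, CCT2 (beta) at chr12:69585334-69601570 on the plus strand, and CCT3 (gamma) at chr1:156308968-156367873 on the minus strand. CCT4 (delta) is at chr2:61868089-61888804 on the minus strand, CCT5 (epsilon) at chr5:10249921-10266412 on the plus strand, and CCT6A (zeta) at chr7:56051630-56063989 on the plus strand. CCT7 (eta) is at chr2:73233420-73253021 on the plus strand and CCT8 (theta) at chr21:29055805-29073797 on the minus strand. Their principal transcripts have 11 to 16 exons and 1916 to 3675 bases.

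A set of 4 promoter windows is shown, each with 250 bases before and 50 bases from an annotated start site (RefSeq, GRCh38.p14, minus strand). CCT4 fell with SAHA in both lines, CCT3 fell with SAHA in J-Lat A2 cells and with PMA in Jurkat cells, TCP1 missed the threshold with SAHA, and CCT8 missed it with PMA. The windows are chr1:156338243-156338542 for CCT3, chr2:61888607-61888906 for CCT4, chr6:159789553-159789852 for TCP1 and chr21:29073599-29073898 for CCT8. Capitals mark matches to 5 motifs, named after them.
CCT3: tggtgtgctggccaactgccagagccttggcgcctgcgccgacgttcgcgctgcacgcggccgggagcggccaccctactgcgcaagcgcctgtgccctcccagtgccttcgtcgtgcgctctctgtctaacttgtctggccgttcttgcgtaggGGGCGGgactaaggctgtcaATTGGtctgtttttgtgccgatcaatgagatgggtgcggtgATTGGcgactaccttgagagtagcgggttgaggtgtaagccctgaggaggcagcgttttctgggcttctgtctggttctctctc
CCT4: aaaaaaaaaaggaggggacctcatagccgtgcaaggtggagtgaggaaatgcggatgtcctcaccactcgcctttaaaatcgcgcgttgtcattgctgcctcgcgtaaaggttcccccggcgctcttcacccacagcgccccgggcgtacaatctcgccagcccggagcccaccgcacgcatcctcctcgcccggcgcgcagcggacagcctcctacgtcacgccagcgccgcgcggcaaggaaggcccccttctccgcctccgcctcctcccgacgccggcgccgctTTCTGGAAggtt
TCP1: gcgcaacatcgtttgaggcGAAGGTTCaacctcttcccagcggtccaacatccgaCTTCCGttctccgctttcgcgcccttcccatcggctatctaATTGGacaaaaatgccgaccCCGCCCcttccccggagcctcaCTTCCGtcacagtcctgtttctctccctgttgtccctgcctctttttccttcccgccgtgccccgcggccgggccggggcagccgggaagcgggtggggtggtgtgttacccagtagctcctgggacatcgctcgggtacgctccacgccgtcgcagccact
CCT8: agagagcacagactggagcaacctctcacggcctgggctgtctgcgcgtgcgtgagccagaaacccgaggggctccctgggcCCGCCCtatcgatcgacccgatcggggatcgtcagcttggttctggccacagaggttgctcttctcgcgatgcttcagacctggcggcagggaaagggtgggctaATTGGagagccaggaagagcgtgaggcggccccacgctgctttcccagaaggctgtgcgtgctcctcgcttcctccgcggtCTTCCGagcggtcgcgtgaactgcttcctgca

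The motifs, read on both strands, were the heat shock element GAANNTTC or TTCNNGAA, the E-box CACGTG, the CCAAT box CCAAT or ATTGG, the GC box GGGCGG or CCGCCC, and the ETS core CGGAAG or CTTCCG. No searched motif overlapped another in the 4 printed windows. The table held 9 windows for 7 of the 8 genes, with 2 each for CCT2 and CCT4, and those of CCT4 overlap. The heat shock element was in 3 of the 9 windows (1 each of TCP1, CCT2 and CCT4), against 13.5% of all 35116 windows. The E-box was in 0 of 9, against 7.26% of all windows. The CCAAT box was in 4 of 9, against 34.6%, the GC box in 6 of 9, against 44.95%, and the ETS core in 6 of 9, against 19.5%. A match is a run of letters, not a measured binding site.

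Without drug, the 8 transcripts together made up more than 1% of the counts. Their summed level was 12553 ± 75.8 CPM in J-Lat A2 cells with DMSO and 12438 ± 741 CPM in Jurkat cells with DMSO (mean ± SD over batches, n = 2 each). Per kilobase of the principal transcript, the level in J-Lat A2 cells with DMSO was highest for TCP1 (921 ± 85.4 CPM per kilobase) and CCT7 (909 ± 6.63), followed by CCT2 (778 ± 44.9) and CCT8 (735 ± 10.9). TCP1 and CCT7 did not differ beyond their spread. Lower levels per kilobase were found for CCT3 (554 ± 52.8), CCT5 (520 ± 46.96), CCT4 (483 ± 12.6) and CCT6A (415 ± 30.4 CPM per kilobase, all n = 2). The batch values of CCT5 overlapped those of CCT3 and of CCT4, while those of CCT3 and CCT4 did not overlap. The ring itself holds the proteins in equal number.

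SAHA lowered most TRiC subunits in J-Lat A2 cells. The summed level was 7918, 7415, 8039, 8900 and 8637 CPM on the 5 plates with SAHA, against 12749, 11213, 13034, 11963 and 11603 CPM on the same plates with DMSO. Every SAHA plate lay below every DMSO plate. In edgeR's quasi-likelihood F test on the batch sums, 7 of 8 subunits fell (Benjamini-Hochberg adjusted p under 0.05), against 4.9% of the 13558 genes tested that were called lower and 8.43% called in either direction. The median log2 change was -0.69 over the 8 subunits and 0.12 over all genes.

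**Figure D1:**
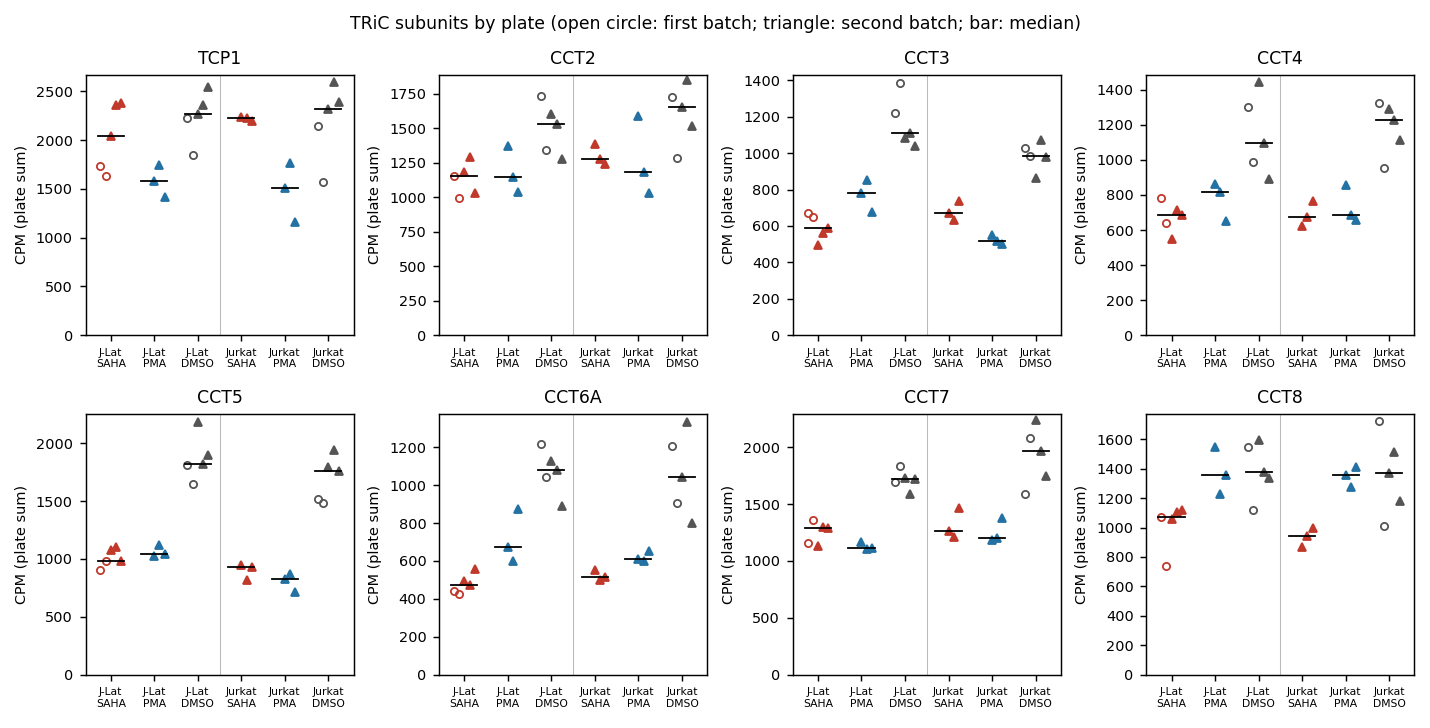
TMM-scaled CPM of each TRiC subunit on every plate (open circles for the first batch, triangles for the second), with the groups along the horizontal axis and the bar at the median of the plates. For CCT6A the SAHA plates of J-Lat A2 lie between 423 and 557 CPM and the DMSO plates between 890 and 1218 CPM, whereas for TCP1 the same groups overlap.

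CCT6A, the zeta subunit, fell most in the fit. Its level was 444, 423, 495, 472 and 557 CPM on the 5 plates with SAHA, against 1218, 1042, 1128, 1079 and 890 CPM with DMSO. The groups did not overlap, and the log2 change was -1.28 ± 0.15 (SE), 2.42-fold lower (edgeR adjusted p = 0.00100). CCT5, the epsilon subunit, was at 903, 980, 1079, 1099 and 983 CPM with SAHA, against 1811, 1650, 2181, 1823 and 1894 CPM with DMSO. Its groups were also apart, with a log2 change of -0.96 ± 0.13 (edgeR adjusted p = 0.00184). CCT3, the gamma subunit, was at 671, 647, 498, 561 and 588 CPM with SAHA, against 1218, 1387, 1085, 1111 and 1041 CPM with DMSO. Its log2 change was -0.996 (SE 0.14, edgeR adjusted p = 0.00245). CCT4, the delta subunit, fell by 0.83 (SE 0.13, edgeR adjusted p = 0.00507), with 546 to 785 CPM with SAHA and 889 to 1442 CPM with DMSO.

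CCT2, CCT7 and CCT8 fell less. Their log2 changes were -0.51 ± 0.13, -0.51 ± 0.13 and -0.54 ± 0.14, with edgeR adjusted p of 0.0405, 0.0343 and 0.0372. TCP1, the alpha subunit that gave the complex its name, was at 1738, 1628, 2041, 2357 and 2381 CPM with SAHA, against 2221, 1845, 2269, 2357 and 2547 CPM with DMSO. The groups overlapped. SAHA was the lower on 5 of 5 plates, but barely so on plate P2770 (2356.97 against 2357.45 CPM). The log2 change of TCP1 was -0.25 with a 95% interval of -0.52 to 0.03 (edgeR adjusted p = 0.300) and it did not pass.

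The count of 7 depended on single sums: it was 4 without the first-batch DMSO sum of J-Lat A2, 3 without its second-batch DMSO sum, 4 without its first-batch SAHA sum, and 4 without plate P2449 or plate P2770. The share of all genes called was also smaller in each of these fits than the 8.43% with all sums. When each well had equal weight, the count of subunits was 0, and 0 of the 13558 genes tested were called. The median log2 change of the subunits was then -1.87.

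SAHA lowered CCT4, CCT5 and CCT6A in Jurkat cells. The summed level was 8546, 8280 and 8845 CPM on the 3 plates with SAHA, against 12273, 10279, 12578, 13507 and 11485 CPM on the 5 plates with DMSO. Again no plate with SAHA reached the lowest DMSO plate. In the edgeR test, 3 of 8 subunits fell, against 2.37% of all genes called lower and 4.22% called in either direction. The median log2 change was -0.63 over the subunits and 0.11 over all genes. An unadjusted p under 0.05 was found for 7 of 8 subunits, against 2328 of the 13558 genes tested.

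CCT6A was at 552, 499 and 516.8 CPM with SAHA, against 1210, 908, 1042, 1332 and 801 CPM with DMSO in Jurkat cells. The 3 SAHA plates were the lowest, and the log2 change was -1.11 ± 0.20 (edgeR adjusted p = 0.0140). CCT5 was at 946, 818 and 932 CPM with SAHA, against 1521, 1481, 1791, 1941 and 1764 CPM with DMSO. It fell by 1.05 on the log2 scale (SE 0.17, edgeR adjusted p = 0.00901). CCT4 fell by 0.83 (SE 0.17, edgeR adjusted p = 0.0287), with 624 to 763 CPM with SAHA and 954 to 1324 CPM with DMSO. The other 5 had log2 changes of -0.68 (CCT8), -0.58 (CCT7), -0.52 (CCT3), -0.38 (CCT2) and -0.18 (TCP1), and none passed the threshold.

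The count of 3 in Jurkat cells was 0 without the second-batch DMSO sum of Jurkat, 1 without plate P2770, and 5 without either SAHA sum of J-Lat A2, which enters the shared estimate of the spread. The share of all genes called, 4.22% with all sums, moved in the direction of the count in each of these fits. With equal weight per well the count was 0, and 0 of the 13558 genes tested were called.

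**Figure D2:**
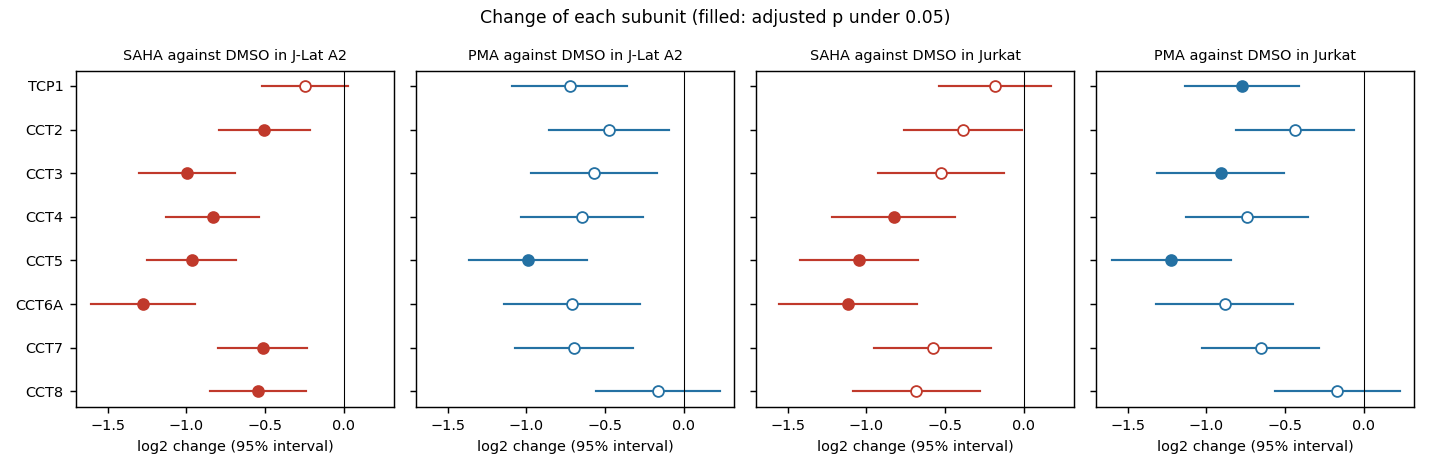
Log2 change of each TRiC subunit with its 95% interval in the comparisons of SAHA and PMA with DMSO, filled where the adjusted p was under 0.05. All 8 changes are below 0 in all 4 comparisons, with TCP1 nearest 0 with SAHA and CCT8 nearest 0 with PMA.

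PMA lowered CCT5 in both lines, and TCP1 and CCT3 in Jurkat cells. In J-Lat A2 cells the summed level was 9010, 8616 and 8169 CPM on the 3 plates with PMA, against 11213 to 13034 CPM on the 5 plates with DMSO, with no overlap. Of the 8 subunits 1 fell (CCT5), against 0.804% of all genes called lower and 1.98% called in either direction. An unadjusted p under 0.05 was found for 7 of 8, against 1637 of the 13558 genes tested. The median log2 change was -0.67 over the subunits and 0.04 over all genes. The PMA and SAHA comparisons of a line share its DMSO sums, so their decreases are not independent of each other.

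CCT5 was at 1028, 1116 and 1039 CPM with PMA in J-Lat A2 cells, against 1811, 1650, 2181, 1823 and 1894 CPM with DMSO. The log2 change was -0.99 ± 0.17, 1.98-fold lower (edgeR adjusted p = 0.0171). TCP1 was at 1578, 1746 and 1413 CPM with PMA, below the 1845 to 2547 CPM of the DMSO plates, with a log2 change of -0.72 ± 0.16 that missed the threshold (edgeR adjusted p = 0.0593). CCT8, the theta subunit, was at 1546, 1230 and 1360 CPM with PMA, against 1549, 1118, 1599, 1375 and 1340 CPM with DMSO. These groups overlapped, and the log2 change was -0.16 with a 95% interval of -0.56 to 0.23. CCT2, CCT3, CCT4, CCT6A and CCT7 had log2 changes of -0.47 to -0.71 that did not pass.

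In Jurkat cells the summed level was 8494, 8104 and 7496 CPM on the plates with PMA, against 10279 to 13507 CPM on the plates with DMSO. Here 3 of 8 subunits fell, against 1.11% of all genes called lower and 2.27% called in either direction. An unadjusted p under 0.05 was found for 7 of 8, against 1842 of the 13558 genes tested. CCT5 was at 823, 868 and 709 CPM with PMA, against 1521, 1481, 1791, 1941 and 1764 CPM with DMSO. Its log2 change was -1.22 ± 0.17, 2.33-fold lower (edgeR adjusted p = 0.00585). CCT3 fell by 0.91 (SE 0.18, edgeR adjusted p = 0.0337), with 501 to 550 CPM with PMA and 866 to 1072 CPM with DMSO. TCP1 fell by 0.77 (SE 0.16, edgeR adjusted p = 0.0427), with 1160 to 1768 CPM with PMA and 1566 to 2599 CPM with DMSO. Its plates overlapped through the first-batch DMSO plate P2458 (1566 CPM), which held no PMA wells. On the 3 plates with both groups, TCP1 was at 1513, 1768 and 1160 CPM with PMA, against 2323, 2599 and 2387 CPM with DMSO. CCT8 was at 1359, 1276 and 1411 CPM with PMA, against 1012 to 1725 CPM with DMSO, and its log2 change of -0.17 ± 0.18 did not pass. The median log2 change was -0.76 over the subunits and 0.07 over all genes.

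The PMA counts moved with single sums as well. In the fits below the share of all genes called mostly moved in the direction of the count. It did not fall in Jurkat cells when either DMSO sum of J-Lat A2 was left out. In J-Lat A2 cells the count of 1 was 0 without the second-batch DMSO sum of J-Lat A2, and 3 and 4 without its first-batch and second-batch SAHA sums. In Jurkat cells the count of 3 was 0 without the second-batch DMSO sum of Jurkat, 1 without either DMSO sum of J-Lat A2 or without plate P2770, and 6 without either SAHA sum of J-Lat A2.

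Set directly against each other, PMA and SAHA gave TCP1 and CCT8 differences of opposite sign, short of the threshold. In J-Lat A2 cells 0 of 8 subunits passed with PMA against SAHA (edgeR), against 3.62% of all genes. An unadjusted p under 0.05 was found for 3 of 8 (CCT6A, TCP1 and CCT3, not CCT8), against 1963 of the 13558 genes tested. CCT6A had a log2 difference of 0.57 with a 95% interval of 0.16 to 0.98. CCT3 had one of 0.43 with an interval of 0.04 to 0.82. TCP1 had a log2 difference of -0.48 with a 95% interval of -0.84 to -0.12 (edgeR adjusted p = 0.171), and CCT8 one of 0.38 with an interval of -0.0049 to 0.77 (edgeR adjusted p = 0.354). In Jurkat cells 0 of 8 passed (edgeR), against 3.87% of all genes. An unadjusted p under 0.05 was found for 2 of 8, against 1954 of the 13558 genes tested. These were TCP1, with a log2 difference of -0.59 and an interval of -0.98 to -0.20, and CCT8, with 0.52 and 0.09 to 0.95. In Jurkat cells CCT6A had a log2 difference of 0.23 with an interval of -0.23 to 0.69. CCT3 had one of -0.38 with an interval of -0.82 to 0.05, opposite in sign to that in J-Lat A2 cells. With the 24 plate sums as units, TCP1 and CCT8 passed in both lines, and CCT3 (0.46) and CCT6A (0.57) passed in J-Lat A2 cells, making 4 of 8 subunits in J-Lat A2 cells, against 9.16% of all genes, and 2 of 8 in Jurkat cells, against 9.31%. Plates of a batch may share a culture, so these p-values may be too small. The DESeq2 Wald test called 2 subunits in J-Lat A2 cells, against 7.74% of all genes, and 1 in Jurkat cells, against 7.81%. These were TCP1 and CCT6A in J-Lat A2 cells and TCP1 in Jurkat cells, while CCT8 did not pass (DESeq2 adjusted p = 0.196 in J-Lat A2 and 0.0704 in Jurkat cells). With the second batch alone CCT8 did not pass in J-Lat A2 cells (edgeR adjusted p = 0.155) and passed in Jurkat cells (edgeR adjusted p = 0.0120).

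The make-up of the transcript pool is given as plate ranges, with no test, for TCP1, CCT8, CCT6A and CCT5. As a share of the summed level per kilobase of all 8 subunits, TCP1 took 20.3 to 25.7% on the plates of J-Lat A2 with SAHA, 16.1 to 18.9% with PMA and 15.4 to 20.8% with DMSO. In Jurkat cells it took 22.9 to 24.9% with SAHA, 13.998 to 20.1% with PMA and 14.2 to 19.6% with DMSO. CCT8 took 16.6 to 19.7% with PMA, 11.6 to 15.6% with SAHA and 11.7 to 14.6% with DMSO in J-Lat A2 cells. In Jurkat cells CCT8 took 18.1 to 21.2% with PMA, 11.7 to 13.1% with SAHA and 11.4 to 16.4% with DMSO. CCT6A took 4.54 to 5.52% with SAHA, 5.97 to 9.16% with PMA and 6.69 to 8.26% with DMSO in J-Lat A2 cells. In Jurkat cells CCT6A took 4.95 to 5.51% with SAHA, 6.03 to 7.21% with PMA and 6.05 to 8.55% with DMSO. CCT5 took 7.17 to 8.53% with SAHA, 7.14 to 8.21% with PMA and 9.09 to 10.8% with DMSO in J-Lat A2 cells. In Jurkat cells CCT5 took 6.21 to 6.98% with SAHA, 5.82 to 6.70% with PMA and 7.87 to 9.86% with DMSO. The CCT5 share was below every DMSO plate of its line on every plate with either drug. The CCT8 share was above the DMSO plates on every PMA plate, and the CCT6A share was below them on every SAHA plate, in both lines. The TCP1 share with SAHA was above every DMSO plate in Jurkat cells and overlapped the DMSO plates in J-Lat A2 cells.

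**Figure D3:**
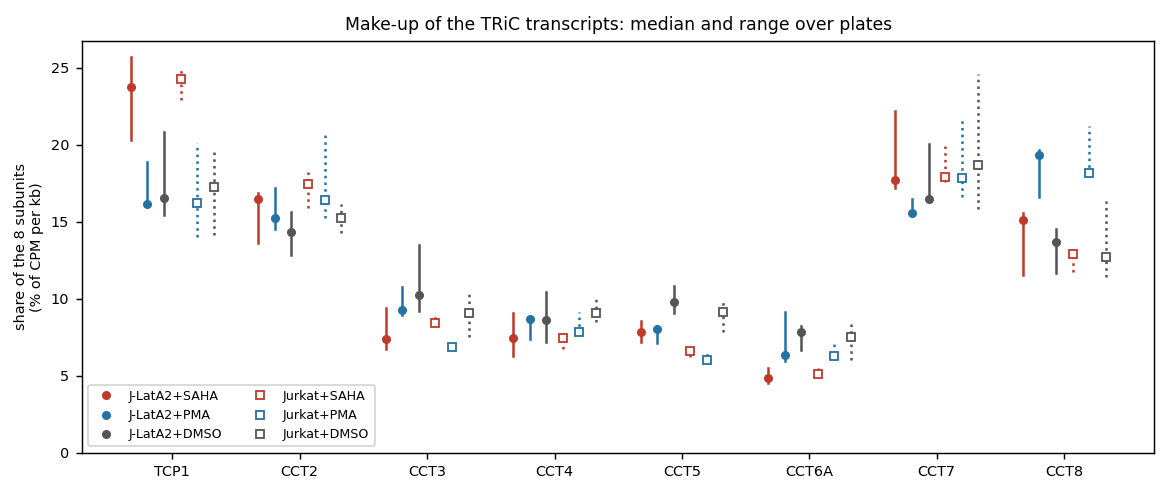
Share of each TRiC subunit in the summed level per kilobase of all 8, in percent, with the point at the median and the line over the range of the plates of each group. TCP1 reaches 20.3 to 25.7% with SAHA in J-Lat A2 cells, and CCT8 reaches 16.6 to 19.7% with PMA.

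No subunit passed the test between the lines. With DMSO, 0 of 8 subunits passed between J-Lat A2 and Jurkat (edgeR), against 0.398% of all genes. An unadjusted p under 0.05 was found for 0 of 8, against 1260 of the 13558 genes tested. DESeq2 also called 0. The log2 differences ran from -0.13 (CCT7) to 0.21 (CCT3), with 95% intervals of -0.41 to 0.16 and -0.09 to 0.52. The difference between the lines in the SAHA effect was called for 0 of 8 subunits (edgeR and DESeq2), against 0.00738% of all genes, and that in the PMA effect for 0 of 8, against 0.0221%. For CCT3 the SAHA effect in J-Lat A2 minus that in Jurkat was -0.47 with an interval of -0.97 to 0.02 (unadjusted p = 0.0597). For CCT6A it was -0.16 with an interval of -0.69 to 0.37, so a difference between the lines of that size could have been missed.

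In single wells, all 8 subunits were usually detected together. Every kept Jurkat well had counts of all 8, in each of the 3 groups. Among J-Lat A2 wells, all 8 were found in 47 of 67 (70.1%, first batch) and 61 of 68 (89.7%, second batch) with SAHA, in 76 of 79 (96.2%) with PMA, and in 58 of 59 (98.3%) and 35 of 35 with DMSO. After each well was thinned to 100000 counts, which left out 14 and 4 SAHA wells, the SAHA shares were 88.7% and 90.6%. In 13 SAHA wells of the first batch and 2 of the second, 3 or fewer subunits were detected, and 11 and 2 of these wells had under 100000 counts. HIVmini, the feature of the viral construct, shows what background looks like: it had a count in 0 to 11.1% of the Jurkat wells, which lack the construct.

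The medians over wells were lower with both drugs than with DMSO. With SAHA, the median J-Lat A2 well had a summed level of 7734 CPM (first batch) and 7981 CPM (second batch). The median was 8176 CPM with PMA, and 12545 and 12089 CPM with DMSO. In Jurkat cells it was 8109 CPM with SAHA, 8072 CPM with PMA, and 11499 and 13151 CPM with DMSO. The 10th to 90th percentiles were 5501 to 11087 CPM with SAHA and 9796 to 14807 CPM with DMSO in the second batch of J-Lat A2, so single wells overlapped where the plate sums did not. In these well data and in the sums, fewer transcripts of TRiC and more of other transcripts cannot be told apart, since each is a share of the total.

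**Figure D4:**
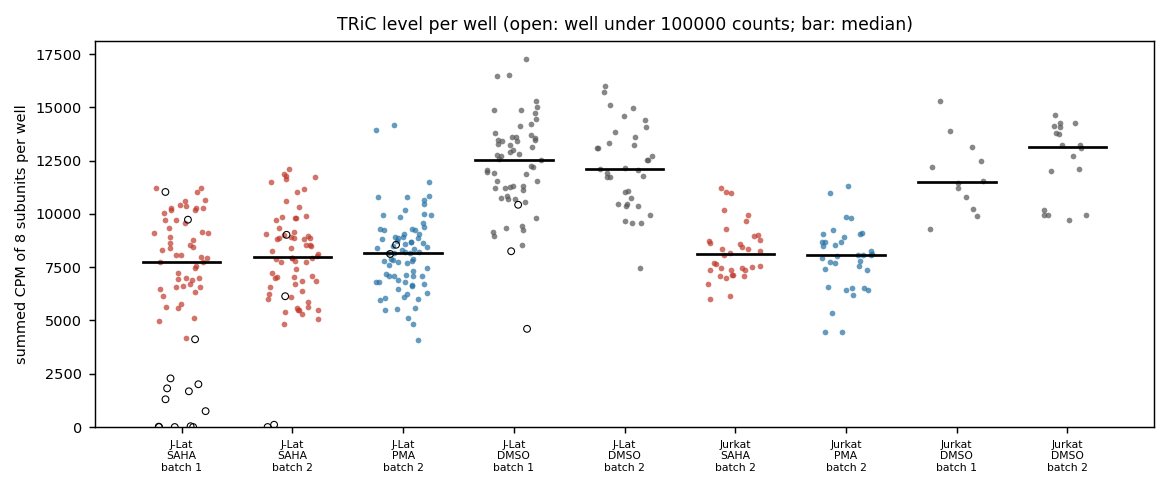
Summed CPM of the 8 TRiC subunits in every kept well, by group and batch, with the bar at the median and open points for wells under 100000 counts. Medians are 7734 to 8176 CPM in the drug groups and 11499 to 13151 CPM in the DMSO groups, and the wells near 0 are J-Lat A2 wells with SAHA.

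The second chaperonin of the cell fell with both drugs. HSPD1 and HSPE1, the mitochondrial chaperonin and its lid, fell in all 4 comparisons with DMSO (2 of 2 genes each). The log2 changes in J-Lat A2 cells were -1.20 and -1.51 with SAHA and -1.38 and -1.30 with PMA. In Jurkat cells they were -1.18 and -1.59 with SAHA and -1.48 and -1.34 with PMA. Prefoldin, the complex that hands substrates to TRiC, had 0 of 6 subunits called in any of the 4 comparisons (edgeR). Of all genes, 8.43% (SAHA) and 1.98% (PMA) were called in J-Lat A2 cells, and 4.22% and 2.27% in Jurkat cells. Median log2 changes of prefoldin were -0.47 with SAHA and -0.19 with PMA in J-Lat A2 cells, and -0.47 and -0.24 in Jurkat cells. In J-Lat A2 cells 3 and 0 of the 6 had an unadjusted p under 0.05, against 2857 and 1637 of the 13558 genes. In Jurkat cells 2 and 1 did, against 2328 and 1842 genes. Of the phosducin-like co-chaperones, 3 of 4 were tested and 0 were called in these comparisons.

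Other partners gave single calls, read against the same shares of all genes. Among 7 genes of the prefoldin-like and R2TP complexes, which assemble larger protein machines, RPAP3 rose with SAHA in J-Lat A2 cells (1.37) and PIH1D1 in Jurkat cells (1.13). RUVBL1 fell with PMA in J-Lat A2 cells (-1.31) and RUVBL2 in Jurkat cells (-0.85). Among 6 tubulin folding cofactors, which act on tubulin after TRiC, TBCD fell with SAHA in both lines (-2.74 in J-Lat A2 and -2.22 in Jurkat), and 0 were called with PMA (edgeR).

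The genes of the main substrates moved in both directions. Of 14 actin and tubulin genes, 7 rose and 3 fell with SAHA in J-Lat A2 cells, where 3.53% of all genes were called higher and 4.9% lower, with a median log2 change of 1.15. The 4 called genes with the smallest adjusted p all rose: TUBA1A (2.61), TUBB4B (2.31), TUBA4A (3.74) and TUBB3 (8.04, SE 0.97). In Jurkat cells with SAHA, where 1.84% of all genes were called higher and 2.37% lower, 4 rose and 0 fell. They were TUBA1A (2.12), TUBB4B (1.85), ACTG1 (2.12) and TUBA4A (3.02). With PMA in J-Lat A2 cells, where 1.18% of all genes were called higher and 0.804% lower, 2 rose, ACTB (1.14) and TUBA4A (3.08), and 1 fell, TUBA1B (-1.05). In Jurkat cells with PMA, where 1.17% of all genes were called higher and 1.11% lower, 1 rose, TUBA4A (3.92), and 3 fell, TUBA1B (-1.47), TUBB4B (-1.25) and TUBG1 (-0.997). Isotypes within the actin, alpha tubulin or beta tubulin family are close in sequence, so counts could be split among them.

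Among 12 other reported substrates, read against the same shares of all genes, 2 rose and 1 fell with SAHA in J-Lat A2 cells, 1 rose with PMA in J-Lat A2 cells, 2 rose with SAHA in Jurkat cells, and 1 rose and 2 fell with PMA in Jurkat cells. STAT3, a transcription factor, rose in all 4 comparisons (1.41 and 1.29 with SAHA, 3.21 and 1.92 with PMA, in J-Lat A2 and Jurkat cells). CDC20, a mitotic WD40 protein, rose with SAHA in both lines (0.82 and 1.15) and fell with PMA in Jurkat cells (-1.92). MLST8, a WD40 subunit of the mTOR complexes, fell with SAHA in J-Lat A2 cells (-1.62), and the mitotic kinase PLK1 fell with PMA in Jurkat cells (-1.19).

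**Figure D5:**
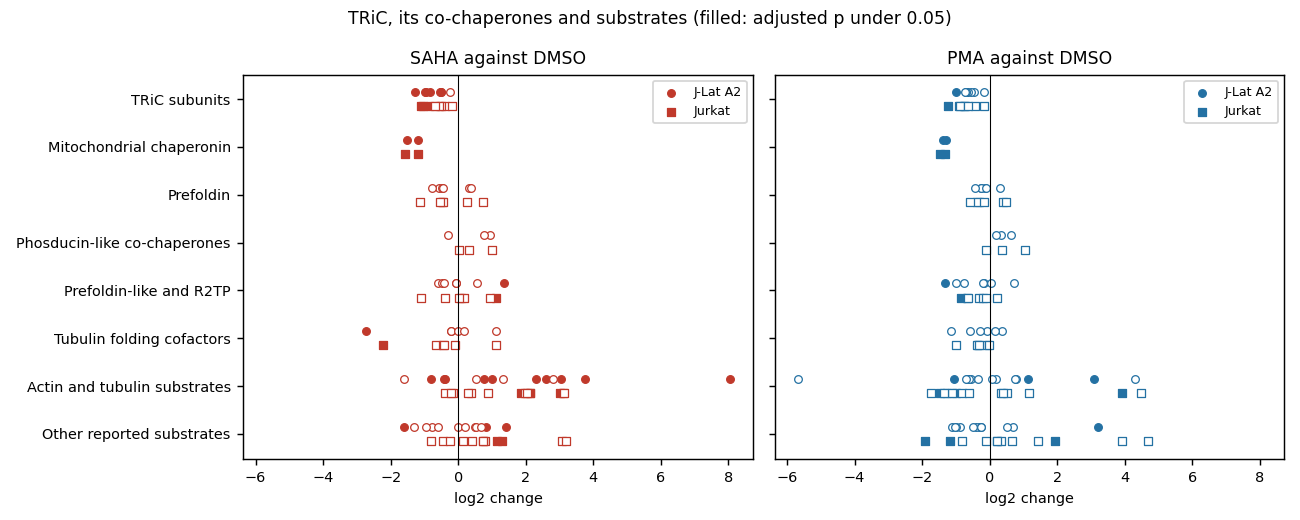
Log2 change with SAHA (left) and PMA (right) against DMSO for TRiC, its co-chaperones and its substrates, with 1 point per gene and line, filled at an adjusted p under 0.05. TRiC and the mitochondrial chaperonin lie below 0 in both panels, while actin and tubulin genes spread to both sides.

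CCT6B, the paralogue of CCT6A known from testis, was a low transcript. In J-Lat A2 cells it was at 29.1 ± 2.60 CPM with SAHA (SD, n = 2), 4.05 CPM with PMA and 8.47 ± 3.09 CPM with DMSO (SD, n = 2). In Jurkat cells it was at 18.7 CPM with SAHA, 2.54 CPM with PMA and 1.21 ± 1.72 CPM with DMSO. Its log2 changes with SAHA of 1.95 ± 0.99 and 3.65 ± 1.21 did not pass (edgeR adjusted p = 0.309 and 0.141). Reads shared by CCT6A and CCT6B could be split between them. CCT8L2, a paralogue of CCT8, had 0 counts in all 9 sums.

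Some subunit counts can hold reads of other loci. GENCODE lists 1 to 4 pseudogene copies for TCP1, CCT4, CCT5, CCT6A, CCT7 and CCT8, none of which is a row of the table. TCP1 overlaps ACAT2 on the opposite strand by 558 bases, and ACAT2 fell with SAHA in both lines (-1.04 and -1.89). CCT4 overlaps COMMD1 by 81 bases, and COMMD1 was not called. CCT3 overlaps TSACC, which was at 5.46 CPM or less. The kit does not keep the strand, so reads from the bases that overlapping genes share cannot be told apart by strand.

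Across the 9 sums, TCP1 and CCT8 followed the other subunits least. Pearson's r of log2 CPM with the mean of the other 7 was 0.57 for TCP1 and 0.74 for CCT8, and 0.91 to 0.97 for the other 6. Over 5890 genes, those most like the mean of the 8 subunits were RAN (r = 0.99), a GTPase of nuclear transport, GRPEL1, a mitochondrial co-chaperone, RPF2 and RRP9, factors of ribosome production, and PAICS, an enzyme of purine synthesis. HMGA1, TIMM13, NOP2, WDR5 and CYC1 followed (r = 0.98 each). The 9 points share 6 groups, depth and batch, so these values are a description.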

How the data were processed

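Values in the deposited table are expected counts for each gene in each well, made by the authors with Salmon 1.5.1 and alevin on GRCh38.p13, per the submitters' processing notes, which give no order or role. The libraries carry no molecular identifier, so values are read counts after amplification. Plates P2449 and P2458 were taken as the first batch and the other 3 as the second, from the stated plate numbers per batch.

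A well was kept at a total of at least 1/10 of its plate's median and at least 500 genes with a count. Totals of kept wells ran from 19756 to 984418. Sums per group and batch were rounded and compared with edgeR 4.0.16 in R 4.3.3: TMM, filterByExpr (13558 genes tested), group and batch as terms, quasi-likelihood F test, two-sided, Benjamini-Hochberg adjustment over all tested genes, threshold 0.05. The fit had 2 residual and 7.75 prior degrees of freedom. On counts simulated with known changes for SAHA against DMSO in J-Lat A2, it recovered most changed genes, and false calls were a larger share of the calls than the threshold allows. Groups with 1 sum were assumed to vary like the others, and labels do not say whether batches were separate cultures, so the spread may be technical. Log2 changes carry the batch term and printed levels do not. Levels of sums are TMM-scaled CPM. Intervals of log2 changes come from this fit and hold the spread between sums.

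All 8 subunits were named. Of each other list, up to 4 called genes with the smallest adjusted p were named, or up to 2 where none was called. Members and lists were chosen with earlier results of these data known. Alternatives used DESeq2 1.42.0 and limma 3.58.1 (log2 of CPM plus 1).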

Additional observations from a re-analysis of the deposited data

Results flagged for a closer look

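One value stood apart among the 24 sets of 5 plates that were examined, 8 subunits in 3 groups. CCT8 in J-Lat A2 cells with SAHA was at 740 CPM on plate P2458, and at 1060 to 1122 CPM on the other 4 plates. Chance flags about 1 in 20 such sets. The same plate also held the lowest CCT8 level with DMSO in J-Lat A2 cells (1118 CPM) and in Jurkat cells (1012 CPM). Without plate P2458 the log2 change of CCT8 with SAHA in J-Lat A2 cells was -0.53 (edgeR adjusted p = 0.0607), against -0.54 with all plates (edgeR adjusted p = 0.0372). Leaving out any other plate gave -0.49 to -0.60, and the call was also lost without P2449, P2769 or P2770.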

How the results depend on the processing

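No log2 change of a subunit that was called in the batch sums changed sign under any alternative, but the counts of called subunits moved. In the order SAHA in J-Lat A2, PMA in J-Lat A2, SAHA in Jurkat and PMA in Jurkat, all against DMSO, they were 7, 1, 3 and 3. The shares of all genes called were then 8.43, 1.98, 4.22 and 2.27%. The counts were 4, 0, 3 and 1 with no replicate block (no batch term), against 7.35, 1.79, 4.71 and 2.05% of all genes. With the DESeq2 Wald test they were 7, 6, 6 and 6, against 14.5, 5.49, 9.4 and 6.28%. With plates as units and plate as a block they were 7, 7, 7 and 7, against 14.2, 5.85, 11.4 and 7.02% of all genes. With the second batch alone they were 5, 4, 6 and 7, against 8.58, 4.37, 8.37 and 5.51%. With equal weight per well (limma) all 4 were 0, but 0 of the 13558 genes tested were called in each of the 4 comparisons. The median of all genes then shifted to -0.12 in the first comparison. With equal weight over wells of at least 100000 counts, a setting chosen after seeing the data, the counts of subunits were 2, 0, 0 and 0. The shares of all genes called were 2.23, 0, 0 and 0.339%. Leaving out 1 sum or plate at a time gave 3 to 7, 0 to 4, 0 to 5 and 0 to 6. The share of all genes called moved in those fits as well. For PMA against SAHA in J-Lat A2 and Jurkat, the counts of 0 became 2 and 1 with DESeq2 (7.74 and 7.81% of all genes). They were 4 and 2 with plates as units (9.16 and 9.31%) and 2 and 2 with the second batch alone (6.98 and 8.15%). DESeq2 size factors, no filter on low counts, all wells, and wells of at least 100000 counts kept each count within 1.5 times of these. The cause of these shifts was not tested. Limits: 3 groups had 1 batch sum, so their tests borrow the spread of the other groups, and 14 of the 67 kept first-batch SAHA wells of J-Lat A2 had under 100000 counts.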

Other observations

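Across single wells the subunits varied together only loosely. The median Spearman's rho over the 28 pairs of subunits was 0.45 and 0.23 in the first and second batch of J-Lat A2 cells with SAHA, 0.13 with PMA, and 0.16 in both batches with DMSO. In Jurkat cells it was 0.09 with SAHA, 0.11 with PMA, and 0.19 and 0.27 with DMSO. The wells of a group share plates and differ in depth. The rho of the summed TRiC level with the well's total count was 0.43 in the first batch of J-Lat A2 cells with SAHA. It was 0.09 to 0.31 in the other groups and batches of J-Lat A2, and 0.10 to 0.59 in the Jurkat groups. These values are descriptions over wells, which are not replicates.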
